A study of Mus musculus with 4 samples.

Results

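The identity of untreated CMT64 cells was described from their control library alone, taken by its label among the 4 libraries of the series (1 of 4), over all 25704 genes of its table. CMT64 is a line of lung carcinoma cells of the mouse strain C57BL/lcrf, and its tumour of origin was classed as alveologenic. The study kept cells for 24 h with TGF-β (5 ng/ml), TNF-α (10 ng/ml), both or neither, and the last of these is the control. All groups were grown in DMEM with serum, so untreated here means without added cytokine. Each condition had 1 library of poly(A)-selected RNA from 1 line, so no level below can be set against a spread between cultures, and no test was possible.

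The epithelium of the lung, stomach, intestine, liver and pancreas arises from a common embryonic tube, the endoderm. Forkhead factors of the Foxa group act in all of these organs, while Nkx2-1 marks the lung and thyroid, and Hnf4a the liver, intestine and stomach. Mature airway and alveolar cells are then told apart by their products, such as surfactant proteins in alveolar type II cells and secretoglobins in club cells. Carcinoma lines are read against these products to say what the cells still make.

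A gene was called present where its RPKM (the exon reads of a gene, scaled by its exon length in kilobases and by the mapped reads of the library) was above 1. By this rule 10321 of 25704 genes were present (40.2%). Of these 25704 genes, 3659 have no exon length and so cannot be present. Among the 22045 genes with an exon length, 46.8% were present. Both shares serve as background for every list below. The library held 75358896 mapped reads, of which 68115342 were counted in exons, and 3891 genes with an exon length had 0 reads. An RPKM is followed, where given, by the exact Poisson 95% interval of its reads in parentheses, which covers counting error only. The fewest reads behind a present gene were 25, so the threshold was not limited by depth. For a gene with 0 reads, the limit given is the RPKM of 3 reads. The choice of 1 fell in a continuous range, with Crem at 1.00 (0.902 to 1.11) just inside and Cpeb2 at 1.00 (0.917 to 1.09) just outside, and 287 genes had an interval that held 1.

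The control library differed from the 3 treated ones in intron reads and in how levels related to transcript GC content. The relation to GC content between the treated libraries was not tested. Reads in introns made up 6.72% of gene reads in it and 8.16 to 8.50% in the others. The log2 ratio of each treated library to the control fell with transcript GC content, with a Spearman rho of -0.35, -0.68 and -0.33 across 10748, 10948 and 10703 genes for TGF-β, TNF-α and both, where genes are not independent and share the control. When genes were put in 5 equal bins by GC content, the control minus the mean of the others had a median of -0.31 on the log2 scale in the lowest bin and 0.18 in the highest. The larger of these shifts exceeds the log2 distance from the threshold of genes near 1 RPKM, such as Nkx2-1, Tap2, Tagln and Cdh11 below, and their part in any single level was not tested.

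The highest levels included ribosomal protein, mitochondrially encoded, translation, glycolysis and keratin genes. The 10 genes with the most reads took 6.93% of exon reads (Clopper-Pearson 95% interval 6.93 to 6.94), and 750 genes together held 50% of them. The 83 cytosolic ribosomal protein genes, 80 of them present, took 7.90% of reads, and the 13 mitochondrially encoded genes took 2.21%. Leaving out both groups, the 30 genes with the highest RPKM took 9.79%. Translation was represented by Eef1a1 at 4197 RPKM and Eef2 at 2663, the factors that carry transfer RNA to the ribosome and move it along. Glycolytic enzymes were well represented, with Pkm (pyruvate kinase) at 2155 RPKM, Pgk1 at 1455, Tpi1 at 1409, Eno1 at 1198 (552 by unique reads), Ldha (lactate dehydrogenase) at 1169 and the entry Aldoa_1 at 891. Gapdh stood first at 6936 RPKM, but 0.926% of its 967501 reads mapped to it alone, so its level rests on how reads shared with near-identical copies were assigned.

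The same 30 genes also held keratins, the filament gene Vim, a trefoil factor, calcium-binding proteins and a lectin. Krt8, Krt19 and Krt18, which build the intermediate filaments of simple epithelia, reached 1625, 1057 and 926 RPKM (Krt8 1203 by unique reads). Vim, the filament protein of mesenchymal cells and of many cultured carcinoma lines, reached 1004. Tff1, a trefoil peptide secreted by the mucous cells of the stomach surface, was at 1465 RPKM (1452 to 1477) from 52769 reads, 99.1% of them unique. S100a6 and S100a11, small calcium-binding proteins, were at 1339 and 1161 (S100a11 571 by unique reads), and Lgals1, a lectin that binds galactosides, at 888. The pseudogenes Rps12-ps3 and Rpl27-ps3 and the gene models Gm11808 and Gm21887 also entered, with at most 1.62% unique reads, and cannot be separated from the genes they copy.

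**Figure D1:**
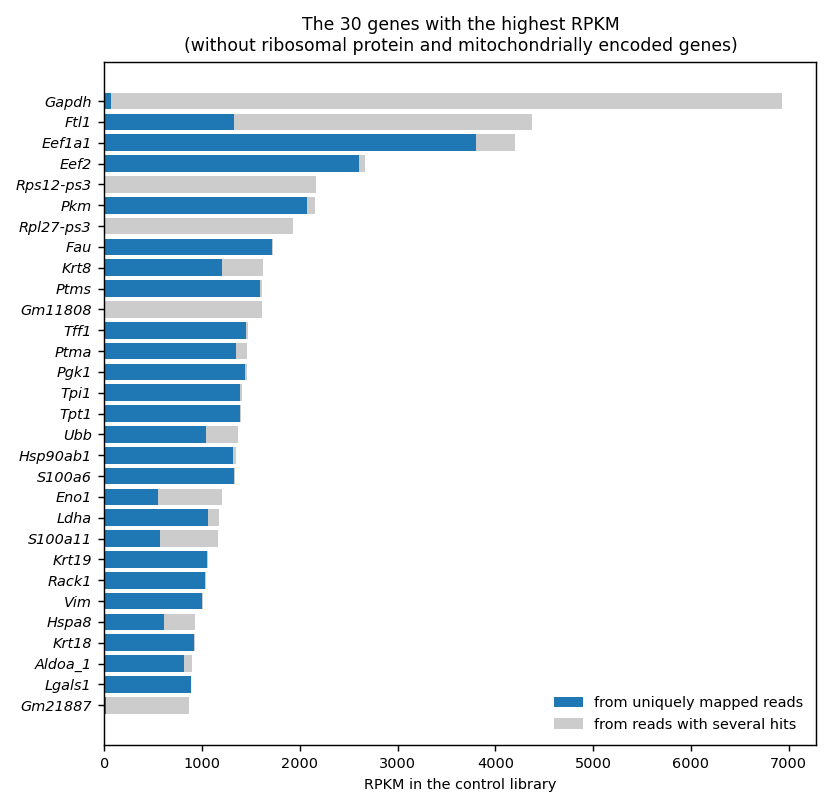
RPKM of the 30 genes with the highest values in the control library (x axis, bars start at 0), leaving out ribosomal protein and mitochondrially encoded genes, with the part from uniquely mapped reads in blue and the part from reads with several hits in grey. Nearly all of Gapdh (6936 RPKM) is grey, whereas Tff1 (1465), Krt19 (1057) and Vim (1004) are nearly all blue.

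The surfactant genes that define alveolar type II cells were not present. Of the 12 markers of these cells, 4 were present (33.3%), beside 40.2% of all genes and 46.8% of those with an exon length. Sftpc, the surfactant protein made only by these cells in the lung, had 0 reads (limit 0.0503 RPKM). Sftpa1 had 2 reads, Sftpd 5 and Sftpb 6. Slc34a2, the phosphate transporter of these cells, had 3 reads, and Lamp3 and Lyz2 had 0. The 4 present were Abca3, the lipid transporter of surfactant vesicles, at 14.1 RPKM (13.8 to 14.5), Etv5, an ETS factor, at 8.33, Lpcat1, an enzyme of phosphatidylcholine synthesis, at 5.86, and Napsa, the protease that trims surfactant proteins, at 1.46 (1.26 to 1.68). Cxcl15, a chemokine of mouse lung epithelium, lay just under the threshold at 0.967 (0.821 to 1.13).

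Alveolar type I markers were present in 6 of 10 cases (60%), beside backgrounds of 40.2% and 46.8%. Gprc5a, an orphan receptor induced by retinoic acid, was at 121 RPKM, and Aqp5, the water channel of alveolar and glandular cells, at 110 (108 to 112). Cav1, the coat protein of caveolae, was at 38.8 and Emp2, a membrane protein, had an interval of 10.6 to 11.4. Ager, the receptor that most sharply marks type I cells, was low at 2.49 (2.21 to 2.80) from 280 reads. Hopx and Pdpn, further defining markers, had 0 reads.

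Markers of the airway lineages were mostly absent. No club cell marker was present (0 of 8), and Scgb1a1, Scgb3a1, Scgb3a2, Cyp2f2 and Lypd2 had 0 reads each. No neuroendocrine marker was present (0 of 8), with Chga, a granule protein of these cells, at 0 reads. For basal cells 1 of 7 was present, Krt14 at 4.06 RPKM, while Krt5 had 7 reads and Trp63, the basal master factor, 3. For ciliated cells 1 of 8 was present, the factor Foxj1 at 8.82 (8.41 to 9.24) from 1743 reads, but the axonemal motor Dnah5 had 5 reads. For goblet cells 1 of 8 was present, Tff2 at 161 RPKM, while the airway mucin Muc5ac had 5 reads and Spdef, the factor of goblet cells, 15.

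Products of the stomach and intestine were among the highest lineage signals, although most markers of both organs were absent. Of 14 stomach markers 5 were present (35.7%) and of 17 intestinal markers 6 (35.3%), beside backgrounds of 40.2% and 46.8%. What stood out was the level of a few. The 3 trefoil genes lie side by side on chromosome 17 (mm10), Tff1 at chr17:31161396-31165053, Tff2 at chr17:31141049-31144282 and Tff3 at chr17:31125306-31129646. All 3 were present, at 1465, 161 and 26.4 RPKM. Tff1 was 9.12 times as high as Tff2 (8.90 to 9.35), and Tff2 was 6.07 times as high as Tff3 (5.68 to 6.50), so the order followed their order along the chromosome.

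The other stomach products present were Muc1, a membrane mucin, at 40.3 RPKM, Psca, a surface protein anchored to lipid, at 20.5, Anxa10, an annexin of gastric mucosa, at 19.5, and Ctse, an aspartic protease, at 5.45. The gastrokine Gkn1 had 2 reads and Gkn2 had 8. Muc6, the mucin of gastric glands, was at 0.0652 RPKM and Cldn18, the claudin of lung and stomach, at 0.214. Of the intestinal group, Lgals4, a lectin of the gut lining, was at 629 RPKM (624 to 634), Cdh17, the liver-intestine cadherin, at 40.9, Vil1, the actin bundler of microvilli, at 19.7, and Gpa33, a surface antigen, at 1.71. Fabp1 had 0 reads, Fabp2 was at 0.509 and the goblet mucin Muc2 at 0.0465.

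Serum proteins of the liver were present in 7 of 19 cases (36.8%), and a pair of them was abundant. Rbp4, the carrier of retinol, was at 389 RPKM (386 to 393). Trf, which codes for transferrin, was at 599, but 14.3% of its reads were unique and it overlaps the gene model Gm20425, and by unique reads it was at 85.6. Apoa1 and Apoe, lipid carriers, were at 5.85 and 5.55, Ttr at 2.75, Apob at 2.70 and Afp, the fetal serum protein, at 1.98. Alb, the major product of mature liver, was at 0.926 (0.780 to 1.09), an interval that holds the threshold. Of 12 pancreatic markers, 2 were present, the factor Pdx1 at 7.23 and the elastase Cela1 at 1.84. Of 6 markers of mesothelium, 2 were present (33.3%), Msln and Upk1b. Msln (mesothelin), shared by mesothelium and many carcinomas, was at 254 RPKM, while Wt1, a factor that defines mesothelium, had 4 reads.

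Markers of endothelium and fibroblasts were at or near 0, and a few markers of blood, muscle and nerve were present. None of 8 endothelial markers was present, and their summed level was 0.14 RPKM. None of 10 fibroblast markers was present, with a sum of 0.502 of which Col1a1, the main chain of fibrillar collagen, made 0.414. Of 10 haematopoietic markers 2 were present, Cd68 at 1.85 and the myeloid factor Spi1 at 1.19, while Ptprc, which codes for CD45, had 3 reads and Cd3e and Tyrobp had 0. Epor, at 1.95, was the erythroid marker present of 8. Tnnt2, troponin T of the heart, was the muscle marker present of 8 at 34.9, with 77.1% of its reads across exon junctions. Of 8 neural markers, 2 were present, Mbp at 9.46 with 5.45% of its reads across junctions, and Tubb3 at 1.31, of whose reads most were not unique.

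**Figure D2:**
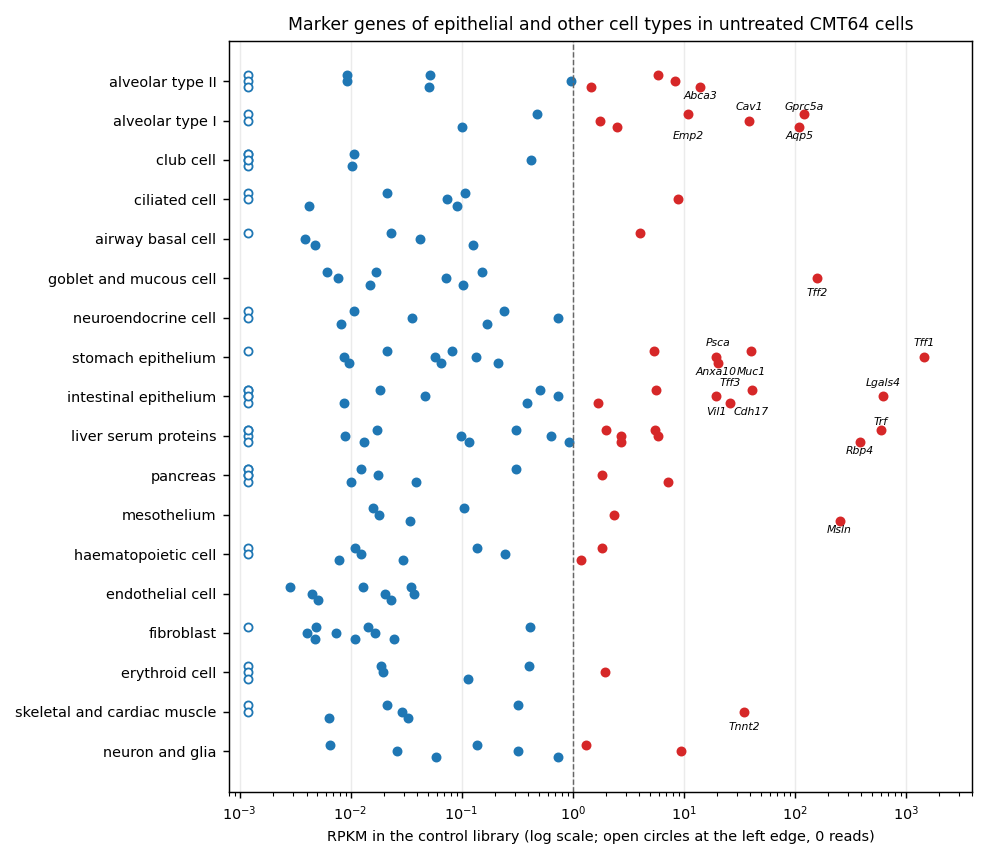
RPKM of each marker gene in the control library (x axis, log scale), 1 row per cell type list; red points are above RPKM 1 (dashed line), blue points at or below it, and open circles at the left edge had 0 reads. Tff1 (1465) and Lgals4 (629) lie far to the right, while all 8 club cell and all 8 endothelial markers lie left of the line.

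Most transcription factors of the lung and foregut list were present, and Nkx2-1 lay at the threshold. Of 15 lung and foregut factors, 10 were present (66.7%), with a median of 26.9 RPKM, beside backgrounds of 40.2% and 46.8%. Foxa2, a pioneer factor of endoderm, led at 106 RPKM (105 to 108) and its relative Foxa1 was at 34.3. Id2, an inhibitor of helix-loop-helix factors in distal lung tips, was at 97.6. Foxp4 and Foxp1, repressors of the developing airway, were at 58.2 and 12.5. Etv4 and Etv5, which act downstream of FGF signals, were at 55.0 and 8.33. Gata6, a zinc finger factor of endoderm, was at 51.3 (50.4 to 52.2), Sox9, a factor of distal lung progenitors, at 34.0, and Cebpa, a factor of alveolar and liver maturation, at 26.9.

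Nkx2-1, the factor that sets lung identity, was at 0.882 RPKM (0.761 to 1.02) from 189 reads, just under the threshold with an interval that reached it. Foxa2 was 120 times as high (104 to 140). Foxp2 was at 0.0106 and Tbx4, a factor of lung mesenchyme, at 0.0195. Sox2, the factor of proximal airways, had 0 reads (limit 0.0194 RPKM), as had Hopx.

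Factors of the gut and liver were present in 9 of 19 cases (47.4%), near the 46.8% of genes with an exon length. The median over the list was 0.827 RPKM. Hnf4a, a nuclear receptor at the head of the liver and gut programme, was at 74.0 RPKM (73.1 to 74.9) from 26232 reads. Its paralog Hnf4g was at 0.161, so Hnf4a was 459 times as high (325 to 670). Onecut2, a factor of liver and pancreas buds, was at 12.2. Pdx1, of pancreas and duodenum, was at 7.23, Gata4 at 6.80 and Cdx2, which specifies the intestine, at 5.67 (5.32 to 6.04). Nr1h4, the bile acid receptor, was at 4.17. Creb3l3 was at 0.827, Gata5 at 0.296, Foxa3, Nr5a2, Barx1 and Prox1 were below 0.1, and Cdx1, Onecut1 and Isx had 0 reads.

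**Figure D3:**
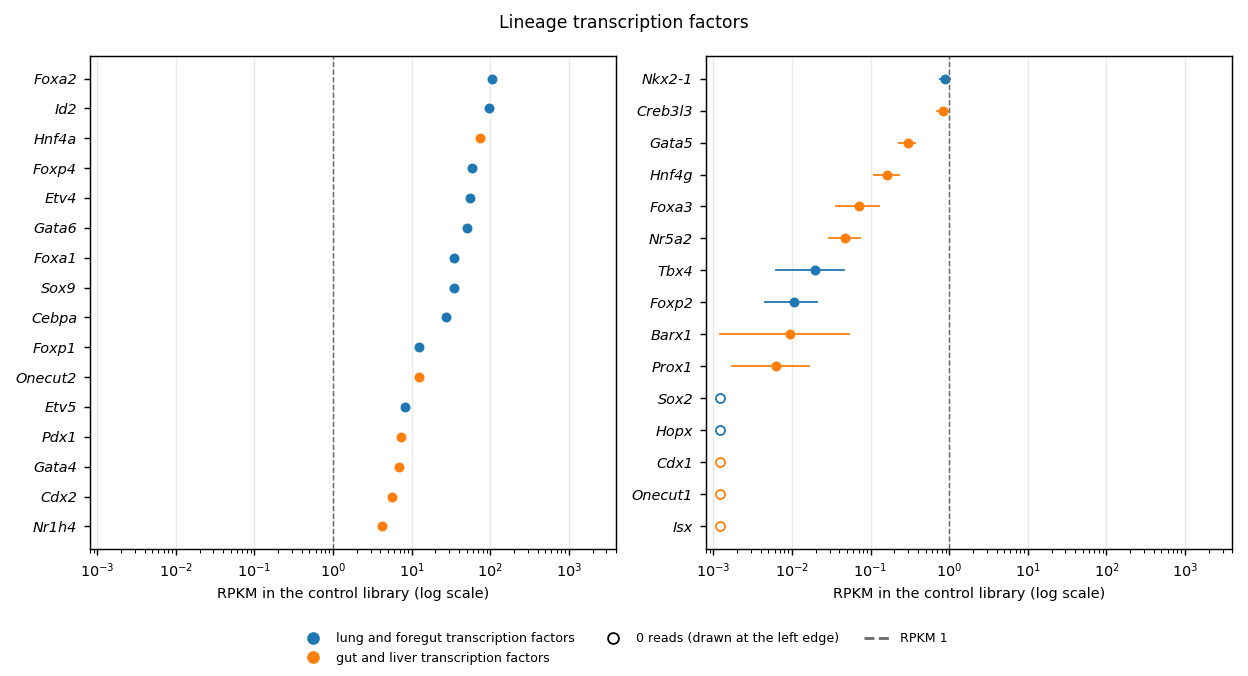
RPKM of 31 lung and foregut factors (blue) and gut and liver factors (orange) in the control library (x axis, log scale), ordered by level, with the 95% Poisson interval as a line cut at the left edge of the axis. Foxa2 (106) and Hnf4a (74.0) stand near the top, Nkx2-1 (0.882) just left of the threshold of 1, and 5 factors with 0 reads are open circles.

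Families of developmental factors differed in how many members were present. Of 38 Hox genes (without Hoxd4, which is listed more than once), 7 were present (18.4%), all of the Hoxa cluster, and only Hoxa10, at 8.16, was above 2 RPKM. Hoxa3, Hoxa5 and Hoxa6 overlap a gene model, had at most 11.3% unique reads and are uncertain. Of 19 Sox genes 3 were present (15.8%), Sox4 at 94.8, Sox9 at 34.0 and Sox13 at 12.9. Of 44 Fox genes 19 were present (43.2%), with Foxq1, a factor of stomach acid cells and hair, highest at 232 (58.7% unique reads) and Foxf2, usually a factor of gut mesenchyme, at 65.3. Of 6 Gata genes 2 were present, with Gata6 7.54 times as high as Gata4 (7.19 to 7.91). Klf4, a factor of post-mitotic gut and skin epithelium, was at 144, the highest of 12 Krüppel-like factors present of 17 (70.6%).

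The epithelial skeleton and adherens junction were present at high levels, while several common epithelial genes were missing. Of 30 epithelial structure genes, 20 were present (66.7%). Cdh1, which codes for E-cadherin, was at 251 RPKM (249 to 253) from 83783 reads. By total reads Krt8 was 1.75 times as high as its partner Krt18 (1.74 to 1.77). Of the Krt8 reads 74.0% were unique, against 99.2% for Krt18, and by unique reads the levels were 1203 and 919. Krt20, a keratin of the gastrointestinal lining, was at 229 and Krt7, a keratin of lung and ducts, at 121. Jup (plakoglobin) was at 116, Perp at 63.4 and F11r, a tight junction adhesion molecule, at 59.3.

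Epcam, the adhesion molecule used most often to mark carcinoma cells, had 9 reads, 0.0585 RPKM (0.0268 to 0.111). Cldn4 had 0 reads (limit 0.0219 RPKM), and Cldn1, Cldn7 and Cldn3 had 4, 6 and 14. Of all 25 claudins, 3 were present, Cldn2, which forms pores for cations, at 175 RPKM, Cldn12 at 13.5 and Cldn6, an embryonic claudin, at 12.0. Esrp1, a splicing regulator of epithelia, had 2 reads, whereas its paralog Esrp2 was at 24.9 RPKM (24.3 to 25.5), although Esrp2 overlaps Nfatc3. Dsg2, Rab25 and St14 lay between 0.26 and 0.587 RPKM. Of 53 keratins, 13 were present, and outside the simple-epithelial ones Krt23 and Krt80 were highest, at 26.4 and 12.4.

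Of 14 broad epithelial factors, 5 were present, among them Klf4 at 144 RPKM, Elf3 at 32.3, Klf5 at 28.0 and Ehf at 9.58. Grhl2, which maintains epithelial junction genes, was at 0.481 (0.416 to 0.554) and Ovol2, a repressor of mesenchymal genes, at 0.117. Of 9 factors that drive epithelial-mesenchymal transition, 2 were present, Snai2 at 3.32 (3.03 to 3.62) and Zeb1 at 3.18 (3.02 to 3.34). Zeb2 was at 0.524 and Snai1 at 0.131. Among 12 mesenchymal structure genes, 6 were present, with Vim 1004, S100a4 97.7 (38.7% unique reads), Fn1 (fibronectin) 82.0 and Sparc, a collagen-binding matrix protein, 22.3 RPKM. Tagln and Cdh11 were near the threshold, at 1.14 and 1.06. Cdh2 (N-cadherin) had 3 reads, Acta2, an actin of smooth muscle, 1, and Lox, which crosslinks collagen, 3. The ratio of Cdh1 to Vim was 0.250 (0.248 to 0.252).

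**Figure D4:**
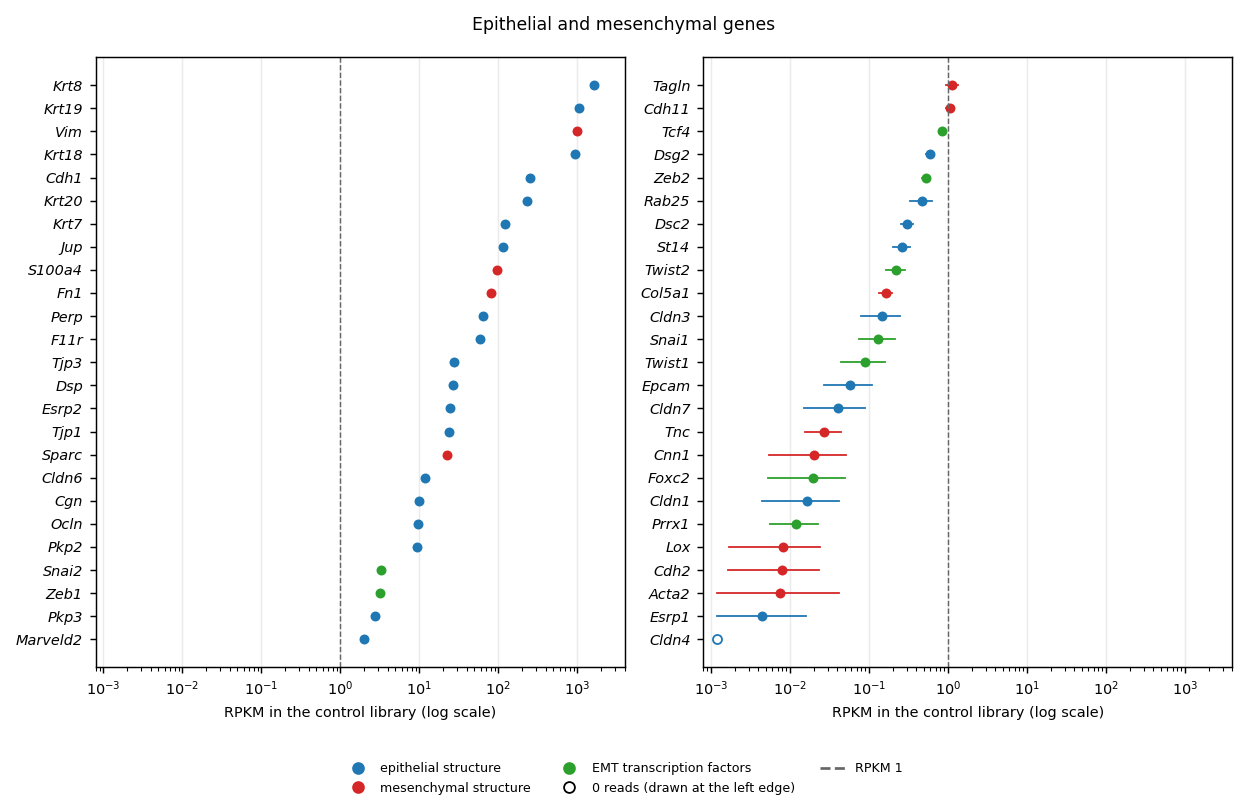
RPKM of 50 epithelial structure genes (blue), mesenchymal structure genes (red) and transition factors (green) in the control library (x axis, log scale), with 95% Poisson intervals cut at the left edge. Krt8 (1625), Vim (1004) and Cdh1 (251) stand at the top, and Epcam (0.0585) and Cldn4 (0 reads, open circle) lie left of the threshold of 1.

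Snail and Zeb proteins bind the E-box CAGGTG, so the promoters of an epithelial pair at or near 0 reads and of an abundant pair are shown for their E-boxes. Each runs from 250 bases before to 50 bases after the gene start in RefSeq (GRCm38.p6), 5′ to 3′ on the gene's strand, and capitals mark CAGGTG on either strand. They are Epcam at chr17:87635729-87636028 (plus strand), Cldn4 at chr5:134946885-134947184 (minus), Krt8 at chr15:102004293-102004592 (minus) and Lgals4 at chr7:28833544-28833843 (plus).
Epcam: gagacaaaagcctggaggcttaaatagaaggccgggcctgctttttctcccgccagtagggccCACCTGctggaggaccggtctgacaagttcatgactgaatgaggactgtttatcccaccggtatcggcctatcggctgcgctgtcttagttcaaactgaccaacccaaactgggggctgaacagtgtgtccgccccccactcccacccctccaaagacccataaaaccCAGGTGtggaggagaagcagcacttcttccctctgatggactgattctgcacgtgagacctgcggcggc
Cldn4: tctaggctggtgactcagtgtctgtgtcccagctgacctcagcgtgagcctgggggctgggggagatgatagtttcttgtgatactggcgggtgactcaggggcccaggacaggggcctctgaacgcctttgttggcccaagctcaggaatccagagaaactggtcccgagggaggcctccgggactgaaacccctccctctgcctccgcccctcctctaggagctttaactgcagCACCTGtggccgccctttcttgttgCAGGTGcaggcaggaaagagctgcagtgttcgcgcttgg
Krt8: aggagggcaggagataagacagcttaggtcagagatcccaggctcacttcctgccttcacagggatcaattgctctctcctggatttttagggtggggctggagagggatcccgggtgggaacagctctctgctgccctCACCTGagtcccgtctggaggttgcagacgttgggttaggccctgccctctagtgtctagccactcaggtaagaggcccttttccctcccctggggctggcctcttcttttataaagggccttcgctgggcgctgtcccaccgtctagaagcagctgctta
Lgals4: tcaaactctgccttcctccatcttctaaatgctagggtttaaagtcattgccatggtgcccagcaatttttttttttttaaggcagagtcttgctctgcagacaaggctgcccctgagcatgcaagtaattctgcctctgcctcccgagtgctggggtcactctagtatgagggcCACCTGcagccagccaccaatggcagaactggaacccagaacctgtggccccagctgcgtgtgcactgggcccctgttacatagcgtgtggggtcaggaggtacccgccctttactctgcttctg
The Epcam and Cldn4 promoters, of genes with 9 and 0 reads, each held 2 matches, and those of Krt8 and Lgals4, at 1625 and 629 RPKM, held 1 each. CAGGTG occurred in 20.2% of all 32851 promoters of that length. The letters thus occurred in both pairs, and a match describes letters, not binding. Promoters of other genes were also counted. Those of Nkx2-1 and Vil1 held 1 match each, those of Hnf4a 0 and 1, and each of Foxa2 held 0. Promoters of present genes were richer in CpG dinucleotides. Their median was 22 over 8156 genes, against 5 over 8334 genes at or below 1 RPKM. TATAAA occurred on either strand in 6.14% of the former and 19.4% of the latter, and in 12.1% of the 428 genes above 100 RPKM. For these medians and shares only the first promoter listed for a gene was used.

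Receptors for both cytokines of the study were present without added cytokine. Of 14 TGF-β family receptors, 9 were present (64.3%). Tgfbr2, the type II receptor that binds TGF-β, was at 22.4 RPKM (22.0 to 22.8) and Tgfbr1, the type I kinase it recruits, at 9.39 (9.12 to 9.67), a ratio of 2.38 (2.31 to 2.47). The activin and BMP receptors Acvr1, Acvr1b, Bmpr1a, Acvr2a, Acvr2b and Bmpr2 lay between 1.95 and 11.1, and Amhr2 was at 2.54. The co-receptors Tgfbr3 and Eng were at 0.147 and 0.466. Acvrl1, the type I receptor of endothelium, was at 0.0596 and Bmpr1b at 0.0401. Acvr1c had 2 reads, 0 of them unique, which is under the limit of 3 reads.

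Of 19 TNF receptors, 7 were present (36.8%). Tnfrsf1a, the receptor for soluble TNF-α, was at 44.9 RPKM (43.9 to 45.9), 7.68 times as high as Tnfrsf1b (7.28 to 8.09) at 5.85. Higher still were Tnfrsf12a, the receptor of TWEAK, at 271, Tnfrsf21 at 157 and Ltbr, the lymphotoxin receptor, at 134. The death receptor Tnfrsf10b was at 5.64, whereas Fas had 5 reads (0.0368 RPKM) and Cd40 had 1. Tnfrsf4 was just present at 1.15, and Relt and Tnfrsf18 were just under, at 0.862 and 0.843. Tnfrsf11a, Tnfrsf9, Eda2r, Cd27, Tnfrsf8, Tnfrsf19, Ngfr and Edar were lower.

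Among 58 receptor tyrosine kinases, 23 were present (39.7%), beside 40.2% of all genes and 46.8% of those with an exon length. Axl, a receptor for Gas6, was highest at 182 RPKM (180 to 183), followed by the ephrin receptor Epha2 at 92.1, the collagen receptor Ddr1 at 58.8 and Ephb4 at 34.9. Of the EGF receptor family, Erbb2 was at 21.7 and Erbb3 at 7.32, whereas Egfr had 5 reads and Erbb4 had 3. Axl was 8.38 times as high as Erbb2 (8.19 to 8.58). Met, the receptor of hepatocyte growth factor, was at 15.4. Kit had 0 reads, Kdr 2, Pdgfrb 2, Alk 4, Fgfr1 8 and Pdgfra 12, and Ret and Ros1 16 and 26.

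Of 34 cytokine receptors 17 were present (50%), near the 46.8% of genes with an exon length. They were led by Ifngr1 at 39.6, Il17rc at 24.0, Il4ra at 14.3, Il22ra1 at 14.1, Il1r1 at 13.2 and Ifngr2 at 12.7. Ifngr2 forms the interferon-γ receptor with Ifngr1. Osmr had 3 reads, and Lifr and Il1rap 8 each. Of 24 Wnt, Notch and Hedgehog receptors 15 were present (62.5%). Smo, the signal transducer of Hedgehog, was at 106 RPKM, Lrp5, a Wnt co-receptor, at 35.1, Fzd5 at 19.6, Fzd2 at 15.8 and Notch2 at 11.4. Lgr5, a stem cell marker of the gut, had 0 reads. Of 49 nuclear receptors 25 were present (51.0%), also near 46.8%. Nr2f6 was at 112, Hnf4a at 74.0, Esrra at 46.1 and Pparg, a factor of fat and of alveolar cells, at 36.7. Receptors of female sex steroids were low, with 1 read each for Pgr and Esr2, and 0.246 RPKM for Esr1.

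Ligands for several receptor kinases were also present. Of 11 EGF family ligands 7 were present, Areg at 43.7 RPKM (42.3 to 45.1), Hbegf at 15.4, Btc at 7.76, Tgfa at 6.31, Ereg at 2.73, Nrg1 at 1.48 and Nrg2 at 1.24. Areg, Tgfa and Btc bind the EGF receptor, whose own gene had 5 reads. Vegfa, the main growth factor of vessels, was at 133, 2.59 times as high as Vegfb (2.51 to 2.66). Ctgf and Cyr61, matrix-associated proteins, were at 27.6 and 16.5, Pdgfb at 15.6 and Kitl at 14.4. Hgf had 1 read, Igf1 had 7 and Igf2 had 23. Of 7 IGF binding proteins 3 were present, Igfbp7 at 477, Igfbp5 at 85.8 and Igfbp4 at 33.1.

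Of 32 genes listed as TGF-β family ligands, 8 were present (25.0%), below both background shares. The 8 include Bmp1, at 6.55 RPKM, which despite its name codes for a protease and not a ligand. Gdf15, a stress-induced member, was at 33.7 RPKM and Tgfb1 at 16.9 (16.3 to 17.5), 10.1 times as high as Tgfb3 (9.17 to 11.3), while Tgfb2 was at 0.166. Bmp2, Bmp4 and Bmp7 were at 7.18, 5.15 and 1.80, and Inhba, the activin subunit, at 1.33. Of 19 Wnt ligands 3 were present, Wnt7b at 4.04, Wnt7a at 1.70 and Wnt4 at 1.35. None of 12 secreted Wnt modulators was present, and all 12 had under 10 reads. Of 22 FGF ligands 3 were present, Fgf21 at 2.94, Fgf18 at 1.31 and Fgf1 at 17.8, the last with 5.67% unique reads and an overlap with Arhgap26.

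**Figure D5:**
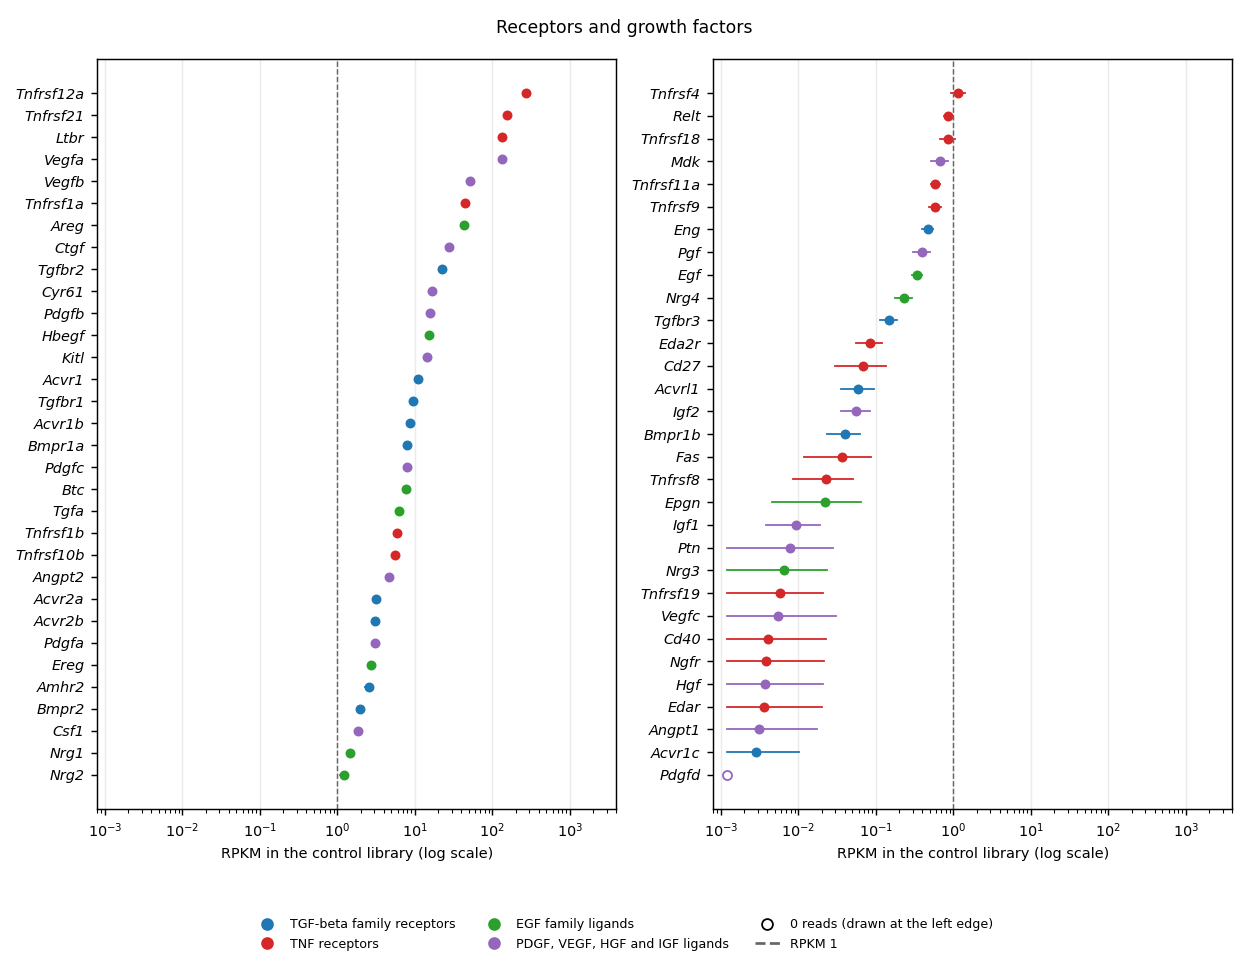
RPKM of TGF-β family receptors (blue), TNF receptors (red), EGF family ligands (green) and PDGF, VEGF, HGF and IGF ligands (purple) in the control library (x axis, log scale), with 95% Poisson intervals cut at the left edge. Tgfbr2 (22.4), Tgfbr1 (9.39), Tnfrsf1a (44.9) and Vegfa (133) lie right of the threshold of 1, and Fas (0.0368) and Hgf (1 read) far to its left.

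A few secreted mediators were abundant, while Tnf, Il1b and Il6 had at most 2 reads. Of 23 genes listed as interleukins and colony-stimulating factors, 7 were present (30.4%). The list also holds Mif and Spp1, which belong to neither class. Mif, a cytokine that is also an enzyme, was at 791 RPKM and Spp1 (osteopontin) at 561 (557 to 565). Clcf1 was at 38.3 and Il33, an alarmin held in the nucleus, at 13.4. Clcf1 had 9214 intron reads beside 5613 exon reads, and 8.82% of its exon reads lay across junctions. Tnf and Il1b, classical inflammatory cytokines, had 0 reads and Il6 had 2. Of 21 chemokines 6 were present, Cxcl5, which attracts neutrophils, at 28.0, Cx3cl1 at 9.71, Ccl27a at 3.09, Cxcl3 at 2.47, Cxcl17 at 1.24 and Cxcl16 at 1.04. Ccl27a had 47.8% unique reads, was at 1.47 by unique reads and overlaps Il11ra1. The interval of Cxcl16 (0.902 to 1.19) held the threshold, and by unique reads it was at 0.831. Ccl2 had 1 read, Ccl5 had 0 and Cxcl12 had 3.

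Of 21 basement membrane genes, 14 were present (66.7%). Lama5, the alpha chain of laminins in adult epithelium, was at 103 RPKM, Agrn at 69.7, Lamb1 at 42.5 and Lamb3 at 28.0. Lama3, another alpha chain of epithelial laminins, was at 0.290 (0.254 to 0.330), so Lama5 was 356 times as high (313 to 406). Of 44 collagen chains 9 were present, with Col18a1, Col4a2 and Col4a1 of basement membranes at 62.4, 23.7 and 20.5. Of 27 integrin chains 13 were present, with Itga3, a laminin receptor, at 130, Itgb1 at 77.4 and Itgb4, of hemidesmosomes, at 55.4. Secreted proteases and inhibitors were present in 11 of 22 cases, with the inhibitors Spint2 at 271, Cst3 at 141 and Timp2 at 77.2, and Mmp14, a membrane collagenase, at 61.0.

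Of 15 genes of the MHC class I pathway, 10 were present (66.7%). The chaperones Calr and Pdia3 were at 169 and 149 RPKM, and the class I heavy chains H2-K1 and H2-D1 at 71.4 (69.9 to 72.9) and 63.0 (61.8 to 64.2). B2m, the light chain, was at 100.4, with 29.7% unique reads and an overlap with Patl2. Tap1, a subunit of the peptide transporter, was at 0.337 (0.265 to 0.422) and Tap2 at 0.972 (0.857 to 1.10), while Psmb9 was at 0.118 and Psmb8 had 0 reads, both subunits of the immunoproteasome. Calr was 502 times as high as Tap1 (400 to 638). Nlrc5, the activator of class I genes, had 5 reads, whereas both chains of the interferon-γ receptor were present, as given above.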

How the data were processed

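RNA of CMT64 cells was sequenced by the authors, with 1 library per condition. Adapters were removed and reads mapped by the authors in CLC Genomics Workbench (version not given in the sources used here; mismatch cost 2, insertion and deletion cost 3, length and similarity fraction 0.8, at most 30 hits per read), and the submitters' processing notes name the build mm10. The counts in the deposited tables are whole reads per gene, total (reads with several hits included) or unique. The RPKM values deposited by the authors divide these total exon reads by exon length and by mapped reads. The TPM values deposited by the authors are a rescaling of RPKM and served only as an alternative. No strand was stated, so overlapping genes cannot be separated.

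In the control library, genes above 1 RPKM were counted as present, the threshold the study applied to untreated cells. Exact Poisson intervals (95%) of the reads and Clopper-Pearson intervals of ratios and shares were computed. The Poisson intervals and the calls were run on reads simulated from a Poisson model, which checks the calculation only. Clopper-Pearson intervals were not simulated. Intervals cover counting error only. The 45 lists and 14 families, the pairs of genes and the naming rule were chosen with earlier results of these data known. The rule names the 30 genes of highest RPKM without ribosomal protein and mitochondrially encoded genes, up to 6 present members per list and the defining markers, all members of both lineage factor lists and of the TGF-β and TNF receptor lists, the neighbours of Cdkn2a and Cdkn2b, and the members nearest the threshold. Other members named with reads or values below 1 were chosen after their values were seen. Some list members are counted but not reported here by name. H19 and Xist were not matched in the table. Promoter sequences came from RefSeq (GRCm38.p6), and Cdh1, Tff1, Tff2, Esrp1, Esrp2 and Sftpc were not matched there. The software was scipy (1.17.1), pandas (2.3.3), numpy (2.4.6) and matplotlib (3.10.9) under Python (3.11.15). Alternatives were other thresholds, unique reads, TPM, exon reads as denominator, the lower interval limit, a minimum of 10 reads and protein-coding genes only.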

Additional observations from a re-analysis of the deposited data

How the results depend on the processing

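The number of genes present was 10321 and stayed within 1.5 times of that under the 8 alternatives run, between 9388 (RPKM above 2) and 11200 (TPM above 1), with 9868 by unique reads. The share of exon reads in the 10 most abundant genes was 6.93%, and became 5.90% by unique reads and 6.74% without mitochondrially encoded genes. By unique reads 22 of the 30 most abundant genes kept a place, and by total exon reads 21. With unique reads Gapdh was at 64.2 RPKM, Krt8 at 1203, Trf at 85.6, Hmga1 at 85.6 and B2m at 29.8, since reads with several hits were left out. At RPKM above 2 the counts that moved by over 1.5 times were 1 pancreas, 0 haematopoietic, 0 erythroid and 1 neural gene. They were also 5 genes of the TGF-β family ligand list (with Bmp1), 3 oncofetal genes, 1 Hox and 1 Wnt gene. At RPKM above 0.5 they were 1 neuroendocrine gene, 4 transition factors, 11 TNF receptors and 10 chemokines. By TPM above 1 they were 1 club cell, 1 neuroendocrine, 1 fibroblast and 2 erythroid genes, and 8 broad epithelial factors. Also moved were 4 transition factors, 11 TNF receptors, 11 genes of the interleukin list, 10 chemokines and 14 collagen chains. Unique reads gave 4 Hox genes and 1 neural gene, and the lower interval limit 3 Hox genes. Levels under the limit of 3 reads were not detectable at this depth, and 1 library gives no spread between cultures. No paired analysis was possible because the control has 1 library and the result comes from no test.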

Other observations

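Of 23 genes altered in lung adenocarcinoma, 18 were present (78.3%), beside 40.2% of all genes and 46.8% of those with an exon length. Trp53, which codes for the tumour suppressor p53, was at 87.6 RPKM (86.0 to 89.1) and Myc, a growth-promoting factor, at 60.8, 367 times as high as Mycn (264 to 527). Nfe2l2, the regulator of the oxidant response, was at 62.0 and its inhibitor Keap1 at 31.8, and Stk11, a tumour suppressor kinase, at 31.3. Of 12 target genes of p53, 11 were present (91.7%), with Eda2r at 0.0830 the exception. The present ones included Bax, which promotes apoptosis, at 230 RPKM, Cdkn1a, an inhibitor of the cell cycle, at 70.7 and Phlda3 at 57.7. Of 11 oncofetal genes 5 were present, with the chromatin protein Hmga2 at 48.0, Igf2bp2 at 15.0 and Hmga1 at 511, of whose reads 16.7% were unique, while Lin28a had 0 reads.

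At the Cdkn2 region of chromosome 4 (mm10), neighbouring genes differed widely. Mtap, an enzyme of methionine salvage at chr4:89137122-89181081, had 25045 reads and was at 119 RPKM (117 to 120). Cdkn2a, which codes for p16 and p19, at chr4:89274471-89294653, had 3 exon reads and 4 intron reads. Cdkn2b, which codes for p15, at chr4:89306299-89311039, had 12 exon reads and 16 intron reads. Mtap was 3498 times as high as Cdkn2a (1197 to 16964) and 1037 times as high as Cdkn2b (594 to 2008). Dmrta1 on the far side had 1 read, and Ifne and Zfp352 had 0. The DNA of the line was not measured here.

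On the Y chromosome 1 of 183 genes was present, the gene model Gm47283 with 37208 reads of which 16.5% were unique. The Y-linked genes Ddx3y, Kdm5d and Uty had 3, 4 and 3 reads and Eif2s3y had 0, whereas 286 of 948 genes of the X chromosome were present (30.2%).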
